A study of Mus musculus with 9 samples.

Results

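The genes described here set how much glucose enters the heart muscle cell and how much of the pyruvate made from it is passed on to the mitochondria. They comprise 2 glucose transporters (Slc2a1 and Slc2a4), 3 pyruvate dehydrogenase kinases (Pdk1, Pdk2 and Pdk4), the mitochondrial pyruvate carrier (Mpc1 and Mpc2) and 3 bifunctional 6-phosphofructo-2-kinases (Pfkfb1, Pfkfb2 and Pfkfb3). Probe sets were taken where the platform's gene table gives exactly one of these symbols. This yielded 18 probe sets for 8 of the 10 genes, out of 34945 probe sets with a single symbol and 18193 genes. Mpc2 and Pfkfb1 had no probe set under that rule and were not analysed here.

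RNA came from right ventricular myocardium of male wild-type C57BL6J mice aged 6 to 8 weeks, with 5 arrays of animals whose pulmonary artery had been banded and 4 arrays of sham-operated animals. Banding narrows the artery, so that the right ventricle pumps against a raised pressure, while sham animals undergo surgery without the narrowing. The labels used here state neither the grade of narrowing nor the time since surgery, and the design text can be read as 5 mice in each group. The labels number the replicates without saying that each is a separate animal, so p-values measure the spread between these samples. Values are log2 expression per probe set on one-colour Affymetrix arrays, where 1 unit is a doubling, and the number of arrays limits their precision.

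GLUT1, encoded by Slc2a1, carries glucose into most cells without needing insulin, whereas GLUT4, encoded by Slc2a4, is the insulin-responsive carrier of muscle and fat. Pyruvate enters the mitochondrial matrix through a carrier built of MPC1 and MPC2, and the pyruvate dehydrogenase complex turns it into acetyl-CoA. The PDK enzymes phosphorylate that complex and switch it off, and PDP phosphatases switch it on again. PFKFB enzymes make and remove fructose 2,6-bisphosphate, the strongest activator of phosphofructokinase, the committing step of glycolysis. In the heart PDK4 is induced with fasting and fatty acid use, and Slc2a1 and Pdk1 are textbook targets of the hypoxia-inducible factor HIF-1.

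Of the 8 genes, each represented by its brightest probe set, 2 were higher in banding (Slc2a1 and Pdk1), 4 were lower (Slc2a4, Pdk2, Pdk4 and Mpc1) and 2 did not pass (Pfkfb2 and Pfkfb3). Pdk1 was higher on that probe set only. A gene passed when its limma p, adjusted over all 18193 genes, lay under 0.05. Of all genes 38.4% passed, 18.4% as higher and 20% as lower. The groups did not overlap in 6 of the 8 genes, against 36.7% of all genes, dim ones included. That share was not computed for genes above the dim level alone. The median difference, banding minus sham, was -0.45 over the 8 genes and -0.02 over all genes above the dim level in both groups. The dim level lies 2 units above the floor of 2.198 that all arrays share. The 18193 genes include 7180 that were dim in both groups, whereas none of the 8 genes was. When only genes averaging above the dim level were tested, 7212 of 10748 passed (3490 higher and 3722 lower). The same 6 of the 8 genes passed in that setting. A bulk sample cannot separate fewer cells of a type from less RNA per cell.

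**Figure D1:**
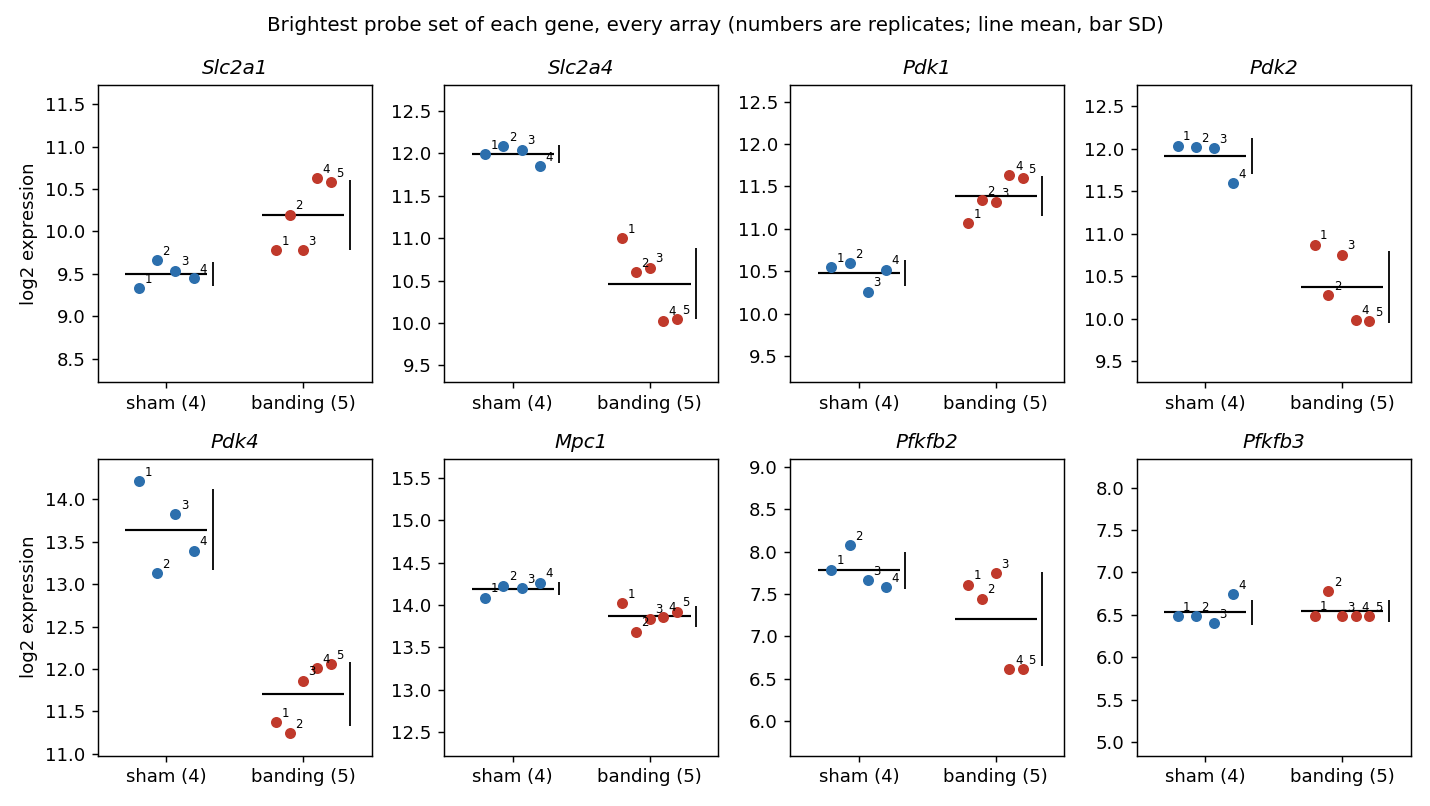
Log2 expression (y axis, each panel spanning 3.5 units) of the brightest probe set of 8 genes on every sham array (blue) and banding array (red), numbered by replicate, with the group mean as a line and the SD as a bar. Groups are apart in Slc2a1, Slc2a4, Pdk1, Pdk2, Pdk4 and Mpc1, while Pfkfb2 and Pfkfb3 overlap.

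Some measures of the arrays bear on all of these values. The gap between the 3' and 5' probe sets of Actb, which grows as RNA is degraded, ran from 0.98 to 1.16 in sham and from 0.83 to 0.89 in banding (exact permutation p = 0.00794, the smallest that 126 splits can give; 0.0238 adjusted over 3 measures). That of Gapdh (exact permutation p = 0.262) and the array medians (exact permutation p = 0.175), tested in the same way, overlapped. The mean of 16 liver genes lay between 6.90 and 11.01 in sham, highest on replicate 4, and between 2.55 and 3.85 in banding. Sham replicate 4 also had the highest mean of 10 skeletal muscle genes, 5.47, where no other array exceeded 3.24. Ventricular cardiomyocyte markers averaged 15.38 to 15.44 in sham and 15.00 to 15.28 in banding, near the top of the scale on every array. Of those 12 markers 7 were lower and 0 higher, or 4 lower without sham replicate 4. Fibroblast markers were higher in 10 of 10 (mean 10.68 to 10.95 in sham, 12.92 to 13.24 in banding) and macrophage markers in 9 of 10 (8.25 to 8.65, then 9.61 to 10.21). Endothelial markers were higher in 5 of 10 and atrial markers in 2 of 6. The part that these differences play in the results was not tested, except as given beside single values.

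The glucose transporters went in opposite directions. Slc2a4 fell 2.88-fold (95% confidence interval 2.04 to 4.05), and Slc2a1 rose 1.62-fold (1.15 to 2.28). Slc2a4 read 11.99, 12.08, 12.04 and 11.84 on sham replicates 1 to 4 and 10.996, 10.60, 10.65, 10.03 and 10.05 on banding replicates 1 to 5. The highest banding array thus lay 0.85 units under the lowest sham array. The means were 11.99 ± 0.10 (SD, n = 4) and 10.46 ± 0.42 (SD, n = 5), a difference of -1.52 ± 0.21 (SE, adjusted p = 0.000893). Its size exceeded that of 93.0% of all genes, which include the 7180 dim in both groups. A second probe set of Slc2a4 (1415959_at) fell by 1.37 ± 0.21 units, from 11.25 ± 0.19 (SD, n = 4) to 9.88 ± 0.38 (SD, n = 5), and passed too (adjusted p = 0.00162 over all 34945 probe sets). At that level 2 of the 18 probe sets rose, 5 fell and 8 did not overlap between groups. Of all probe sets 31.4% passed, 15.3% as higher and 16.1% as lower, and 30.7% did not overlap. With dim probe sets left out, 11584 of 18420 probe sets passed.

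Slc2a1 read 9.33, 9.66, 9.54 and 9.45 in sham and 9.78, 10.20, 9.78, 10.62 and 10.58 in banding. The groups were apart by 0.12 units, and banding replicates 1 and 3 lay close above the sham range while replicates 4 and 5 lay about a unit above it. The difference was 0.70 ± 0.21 (SE, adjusted p = 0.0337), from 9.49 ± 0.14 (SD, n = 4) to 10.19 ± 0.41 (SD, n = 5). The other probe sets of Slc2a1 differed by 0.73 ± 0.24 (1426599_a_at, adjusted p = 0.0542) and 0.59 ± 0.24 (1426600_at, adjusted p = 0.109), and neither passed over all probe sets. Both passed when dim probe sets were left out (adjusted p = 0.0154 and 0.0378) or without banding replicate 3 (0.024 and 0.0457). The first also passed after quantile normalisation (0.0458), after median centring (0.0424) and without banding replicate 1 (0.0433). The call of Slc2a1 was lost without any 1 of banding replicates 2, 4 and 5 or of the 4 sham replicates, with adjusted p up to 0.089, and its difference then lay between 0.59 and 0.75. Of 4 measured erythroid markers 0 were higher and 1 lower, with Hba-a1 and Epb42 dim in both groups, and their mean lay between 4.90 and 5.15 in sham and between 4.15 and 5.14 in banding. Fat expresses GLUT4. Of 7 adipocyte markers Lipe was lower and Fabp4 higher, the latter not without banding replicate 2 or 4 or sham replicate 2 or 4, with Lep, Retn, Cidec and Ucp1 dim in both groups and means of 4.91 to 5.31 in sham and 4.68 to 5.42 in banding. Fabp4 averaged 14.67 in sham and 14.93 in banding. Adipoq, the remaining marker, did not pass and ran from 3.97 to 6.97 in sham and from 3.39 to 7.69 in banding.

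The 3 pyruvate dehydrogenase kinases did not move together. Pdk4 fell 3.81-fold (2.44 to 5.95) and Pdk2 fell 2.91-fold (2.02 to 4.21), whereas Pdk1 rose 1.88-fold (1.52 to 2.33) on its brightest probe set only. Pdk4 stood at 14.21, 13.13, 13.82 and 13.40 in sham and at 11.37, 11.24, 11.86, 12.01 and 12.06 in banding. Sham arrays spread over 1.09 units, and a gap of 1.07 units still separated the groups. The difference of -1.93 ± 0.28 (SE, adjusted p = 0.00103), from 13.64 ± 0.48 (SD, n = 4) to 11.71 ± 0.38 (SD, n = 5), was the greatest of the 8 genes. Its size exceeded that of 95.7% of all genes, which include the 7180 dim in both groups.

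Pdk2, the broadly expressed kinase, read 12.04, 12.02, 12.01 and 11.595 in sham and 10.87, 10.27, 10.75, 9.99 and 9.97 in banding. Sham replicates 1 to 3 were nearly equal and replicate 4 was lower, yet every banding array lay at least 0.73 units under it. The difference was -1.54 ± 0.23 (SE, adjusted p = 0.00117), from 11.91 ± 0.21 (SD, n = 4) to 10.37 ± 0.42 (SD, n = 5). Without sham replicate 4 it was -1.65 (adjusted p = 0.00236).

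Pdk1, the kinase known as a HIF-1 target, was measured by 4 probe sets that disagreed. The brightest (1423747_a_at), whose ending marks probes shared by several transcripts of the gene, read 10.55, 10.59, 10.26 and 10.52 in sham and 11.07, 11.34, 11.31, 11.64 and 11.60 in banding. All banding arrays were higher, by 0.91 ± 0.13 (SE, adjusted p = 0.00108), from 10.48 ± 0.15 (SD, n = 4) to 11.39 ± 0.23 (SD, n = 5). Probe set 1435836_at went the other way, with 11.04, 10.77, 10.80 and 10.74 in sham and 10.63, 10.50, 10.79, 10.29 and 9.97 in banding. It overlapped and did not pass over all probe sets (-0.40 ± 0.17, adjusted p = 0.12), but passed when dim probe sets were left out (adjusted p = 0.0476). Probe set 1423748_at averaged 9.45 ± 0.14 on the sham arrays (SD, n = 4) and 9.47 ± 0.11 on the banding arrays (SD, n = 5), a difference of 0.02 with an interval from -0.17 to 0.20. The fourth lay near the floor in both groups. With the mean of the 4 probe sets the rise of Pdk1 shrank to 0.13 (adjusted p = 0.00868). Of the 3 probe sets above the dim level, 1 carried the rise. On the sham arrays 1435836_at was the brighter, with a mean of 10.84 against 10.48 for 1423747_a_at. The choice of 1423747_a_at to stand for Pdk1 thus depends on the banding arrays, where it was higher.

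**Figure D2:**
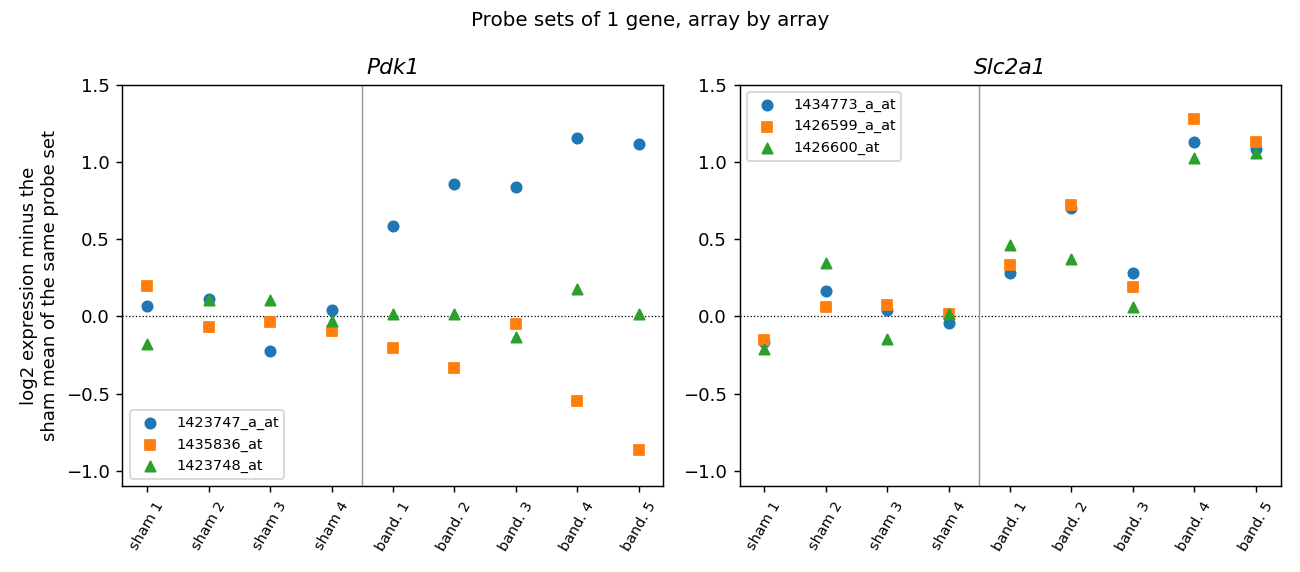
Log2 expression of each probe set above the dim level minus its own sham mean (y axis) on the 4 sham and 5 banding arrays (x axis), for Pdk1 (left) and Slc2a1 (right). The Slc2a1 probe sets differ by 0.59 to 0.73, with 1 of the 3 past the threshold, while those of Pdk1 differ by 0.91, 0.02 and -0.40.

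The sequences upstream of Slc2a1, Pdk1, Pdk2 and Pdk4 are given so that their hypoxia response element cores can be seen beside the values. Each line holds the 250 bases before the most upstream annotated transcript start, 5' to 3' on the gene's strand, from RefSeq on GRCm38.p6. Capitals mark the core ACGTG or GCGTG on either strand (CACGT or CACGC on the printed strand reads as a core on the other). The windows are Slc2a1 at chr4:119108495-119108744 (plus strand), Pdk1 at chr2:71872974-71873223 (plus strand), Pdk2 at chr11:95041372-95041621 (minus strand) and Pdk4 at chr6:5496279-5496528 (minus strand).
Slc2a1: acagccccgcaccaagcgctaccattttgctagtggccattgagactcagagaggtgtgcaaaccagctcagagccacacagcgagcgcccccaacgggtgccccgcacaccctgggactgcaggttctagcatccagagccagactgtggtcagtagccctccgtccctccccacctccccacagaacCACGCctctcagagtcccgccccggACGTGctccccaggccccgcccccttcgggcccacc
Pdk1: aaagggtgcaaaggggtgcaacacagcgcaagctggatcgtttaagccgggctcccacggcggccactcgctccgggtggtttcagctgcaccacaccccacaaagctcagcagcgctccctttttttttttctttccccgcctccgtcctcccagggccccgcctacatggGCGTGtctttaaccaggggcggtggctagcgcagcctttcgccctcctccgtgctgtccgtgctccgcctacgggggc
Pdk2: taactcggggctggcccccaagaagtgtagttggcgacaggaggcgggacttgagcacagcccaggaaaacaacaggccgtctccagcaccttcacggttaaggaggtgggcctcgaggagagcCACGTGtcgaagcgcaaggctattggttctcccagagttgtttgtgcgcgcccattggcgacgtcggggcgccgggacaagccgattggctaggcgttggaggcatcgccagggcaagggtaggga
Pdk4: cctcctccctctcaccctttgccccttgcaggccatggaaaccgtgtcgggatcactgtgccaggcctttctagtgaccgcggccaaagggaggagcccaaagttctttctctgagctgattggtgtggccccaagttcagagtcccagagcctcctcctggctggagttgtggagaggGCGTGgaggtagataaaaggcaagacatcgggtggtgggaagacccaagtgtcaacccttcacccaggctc

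All 4 printed windows held at least 1 core. They belong to Slc2a1, which rose, to Pdk1, which rose on its brightest probe set only, and to Pdk2 and Pdk4, which fell. Counted from the transcript start, with -1 the base before it, Slc2a1 held ACGTG from -36 and GCGTG on the other strand from -61, and Pdk1 held GCGTG from -78. Pdk2 held CACGTG, which reads as ACGTG on both strands, from -126, and Pdk4 held GCGTG from -71. A window was found for 9 of the 10 genes, all but Slc2a4, of which 8 held a core, and of 32851 windows of this length 38.6% held at least 1 core. These sets are unlike, since the 32851 windows cover 27025 genes, some with several windows. Each member had only its most upstream window counted, and most member windows were richer in G and C than the median. GGGCGG, the GC box bound by SP factors, occurred 2 times each in Slc2a1, Mpc2 and Pfkfb3 and 1 time each in Pdk1 and Mpc1, and 32.7% of all windows held at least 1. Neither AAGGTCA nor GTAAACA was found in any of the 9 windows (4.08% and 3.17% of windows). GC content was 66.4% in the Slc2a1 window, 64.0% in Pdk1, 62.4% in Pdk2 and 58.8% in Pdk4, beside a median of 52.4%. A match describes letters and is not evidence of binding.

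Mpc1, the carrier subunit that was measured, fell 1.25-fold (1.12 to 1.40). It read 14.09, 14.23, 14.20 and 14.26 in sham and 14.02, 13.69, 13.84, 13.86 and 13.92 in banding. The groups were apart by only 0.064 units, between sham replicate 1 and banding replicate 1. Both groups were tight, and the difference of -0.33 ± 0.07 (SE, adjusted p = 0.00657) led from 14.19 ± 0.08 (SD, n = 4) to 13.87 ± 0.12 (SD, n = 5). Its fall was larger in size than the differences of 59.5% of all genes, which include the 7180 dim in both groups.

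The 6-phosphofructo-2-kinases did not pass. Pfkfb2, the isoform of heart muscle, read 7.79, 8.08, 7.67 and 7.58 in sham and 7.61, 7.45, 7.74, 6.61 and 6.61 in banding. Banding replicates 4 and 5 lay about a unit under the others, and replicates 1 and 3 lay within the sham range. The difference was -0.57 ± 0.29 (SE, adjusted p = 0.172), with an interval from -1.24 to 0.10 that includes 0. The probe sets 1422090_a_at (-0.44 ± 0.34) and 1422091_at (-0.56 ± 0.32) had the same direction without passing, and the fourth was dim in both groups. Pfkfb3, the inducible isoform, showed the same value of 6.48 on 5 of 9 arrays, and the others lay between 6.40 and 6.78. Its difference was 0.02 ± 0.09 (SE, adjusted p = 1), with an interval from -0.19 to 0.23. Its second probe set was dim in both groups.

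**Figure D3:**
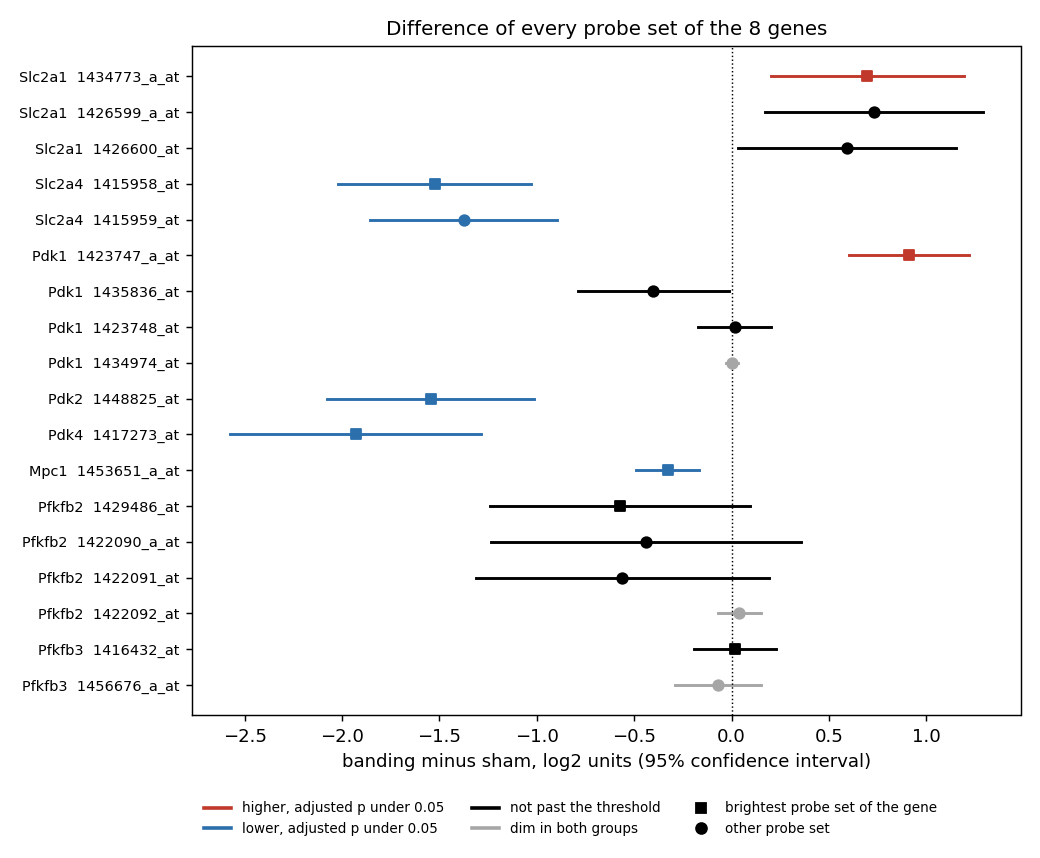
Difference, banding minus sham, in log2 units (x axis) with its 95% confidence interval for all 18 probe sets of the 8 genes (y axis); squares are the brightest probe set of a gene, and colours give the call over all probe sets. There are 2 higher, 5 lower and 11 not past the threshold, of which 3 are dim in both groups.

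Within the banding group, replicates 4 and 5 took the 2 highest or the 2 lowest places in 6 of the 8 genes. The pair was taken from these same values, and the share over all genes was not computed. Whether the pattern is particular to these genes thus cannot be told. They were highest for Slc2a1 and Pdk1 and lowest for Slc2a4, Pdk2 and Pfkfb2, the side away from sham in each. For Pdk4 they were the 2 highest, the side nearer to sham. Across the 9 arrays after group means were subtracted, Slc2a4 went with Pdk2 (r = 0.91) and Pfkfb2 (r = 0.91) and against Slc2a1 (r = -0.85) and Pdk1 (r = -0.86). The r of Slc2a4 with Pdk4 was -0.52, and with Mpc1 0.11. These values describe 9 arrays that share their normalisation. On the same 2 arrays the cardiomyocyte marker mean was 15.00 on each, against 15.10 to 15.28 on the other banding arrays, and the Actb 3' minus 5' difference was 0.89 and 0.83, within the range of the group. The part of these measures in the pattern was not tested.

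Most genes of the pyruvate dehydrogenase complex and its phosphatases fell. Of 9 measured, 8 fell and 1 rose (median -0.81), and the counts were the same without sham replicate 4. Beside them, 38.4% of all genes passed, 20% as lower, and 7212 of 10748 above the dim level. The subunits Pdha1 (-0.53 ± 0.10), Pdhb (-0.60 ± 0.10), Dlat (-0.70 ± 0.09), Dld (-0.87 ± 0.11) and the binding protein Pdhx (-1.17 ± 0.09) all fell. The phosphatases that reactivate the complex fell as well, Pdp1 by 0.99 ± 0.14 units (adjusted p = 0.000849) and Pdp2 at least 7.11-fold (adjusted p = 3.21e-05), with their regulatory subunit Pdpr (-0.81 ± 0.11). Pdk3, the remaining kinase of the family, was the 1 gene that rose. It went from 4.997 in sham to 7.16 in banding, 4.47-fold (2.16 ± 0.31, adjusted p = 0.00105). Thus Pdk1 on its brightest probe set and Pdk3 were higher where Pdk2 and Pdk4 were lower.

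Among 11 other glucose and sugar transporters 3 rose, 2 fell and 6 missed the threshold, including 4 near the floor in both groups. The share of all genes that passed was 38.4%. Slc2a12, which encodes the muscle transporter GLUT12, fell 4.27-fold (-2.10 ± 0.37, adjusted p = 0.00296). Slc2a10 rose at least 2.54-fold (adjusted p = 0.000398) and Slc2a13, a proton-coupled inositol carrier, at least 2.01-fold (adjusted p = 2.01e-05). Slc5a3, a sodium-coupled inositol carrier, rose 7.68-fold (2.94 ± 0.29, adjusted p = 0.000218). Slc2a3, which encodes GLUT3, did not pass (0.92 ± 0.43, adjusted p = 0.146).

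Among 19 genes of GLUT4 trafficking and insulin signalling, 2 rose, 6 fell and 11 missed the threshold (median -0.09). That is near the 38.4% of all genes that passed, beside 7212 of 10748 above the dim level. Tbc1d4, the Akt substrate that holds GLUT4 vesicles back until insulin acts, fell 1.93-fold (-0.95 ± 0.13, adjusted p = 0.000759). Its relative Tbc1d1 rose 1.999-fold (adjusted p = 0.000615), Rab8a rose 1.38-fold and Akt1 fell 1.24-fold. Akt2 fell 2.23-fold (adjusted p = 0.00113). Txnip, an inhibitor of glucose uptake, did not pass (-0.48 ± 0.31, adjusted p = 0.297).

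At glucose phosphorylation and the phosphofructokinase step, 3 of 10 genes rose, 5 fell and 2 missed the threshold. Beside these counts, 38.4% of all genes passed, and 7212 of 10748 above the dim level. Hk2, the insulin-responsive hexokinase, fell 1.46-fold (-0.55 ± 0.05, adjusted p = 0.000204), and Pfkp, a phosphofructokinase isoform, rose 3.42-fold (1.77 ± 0.21, adjusted p = 0.000423). Pfkm, a brighter isoform, fell 1.89-fold, from 13.43 in sham to 12.51 in banding (adjusted p = 0.00648). Pfkl rose 1.30-fold (adjusted p = 0.018). The fructose bisphosphatases fell furthest, Fbp2 of muscle 18.8-fold (adjusted p = 0.000752) and Fbp1 of liver at least 18.2-fold (adjusted p = 0.000938). Fbp1 read 8.14, 7.78, 6.54 and 11.09 on sham replicates 1 to 4, highest on the array with the most liver transcripts, and averaged 2.40 in banding, near the floor. Its bound was 9.78-fold without sham replicate 4 and 27.9-fold without sham replicate 3. Tigar, which removes fructose 2,6-bisphosphate, fell (-0.47 ± 0.14, adjusted p = 0.0275), and Pfkfb4 did not pass (0.31 ± 0.14, adjusted p = 0.133).

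Of 12 genes of lactate exchange and other fates of pyruvate, 1 rose, 9 fell and 2 missed the threshold (median -1.01). Among all genes 38.4% passed, 20% as lower, and above the dim level 7212 of 10748 passed. Ldhb, the heart form of lactate dehydrogenase, fell 1.88-fold (-0.91 ± 0.10), while Ldha rose 1.12-fold (0.16 ± 0.05, adjusted p = 0.0334) with overlapping groups. Slc16a1, which encodes the lactate and pyruvate carrier MCT1, fell 1.37-fold (-0.45 ± 0.09, adjusted p = 0.00528). Gpt, which links pyruvate to alanine, fell 6.16-fold (adjusted p = 5.95e-05) and read highest on sham replicate 4 (10.03, against 9.52 to 9.87 on the other sham arrays). The malic enzymes Me1 and Me3 fell 2.16-fold and 2.62-fold. Without sham replicate 4 the list held 0 higher and 9 lower genes.

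**Figure D4:**
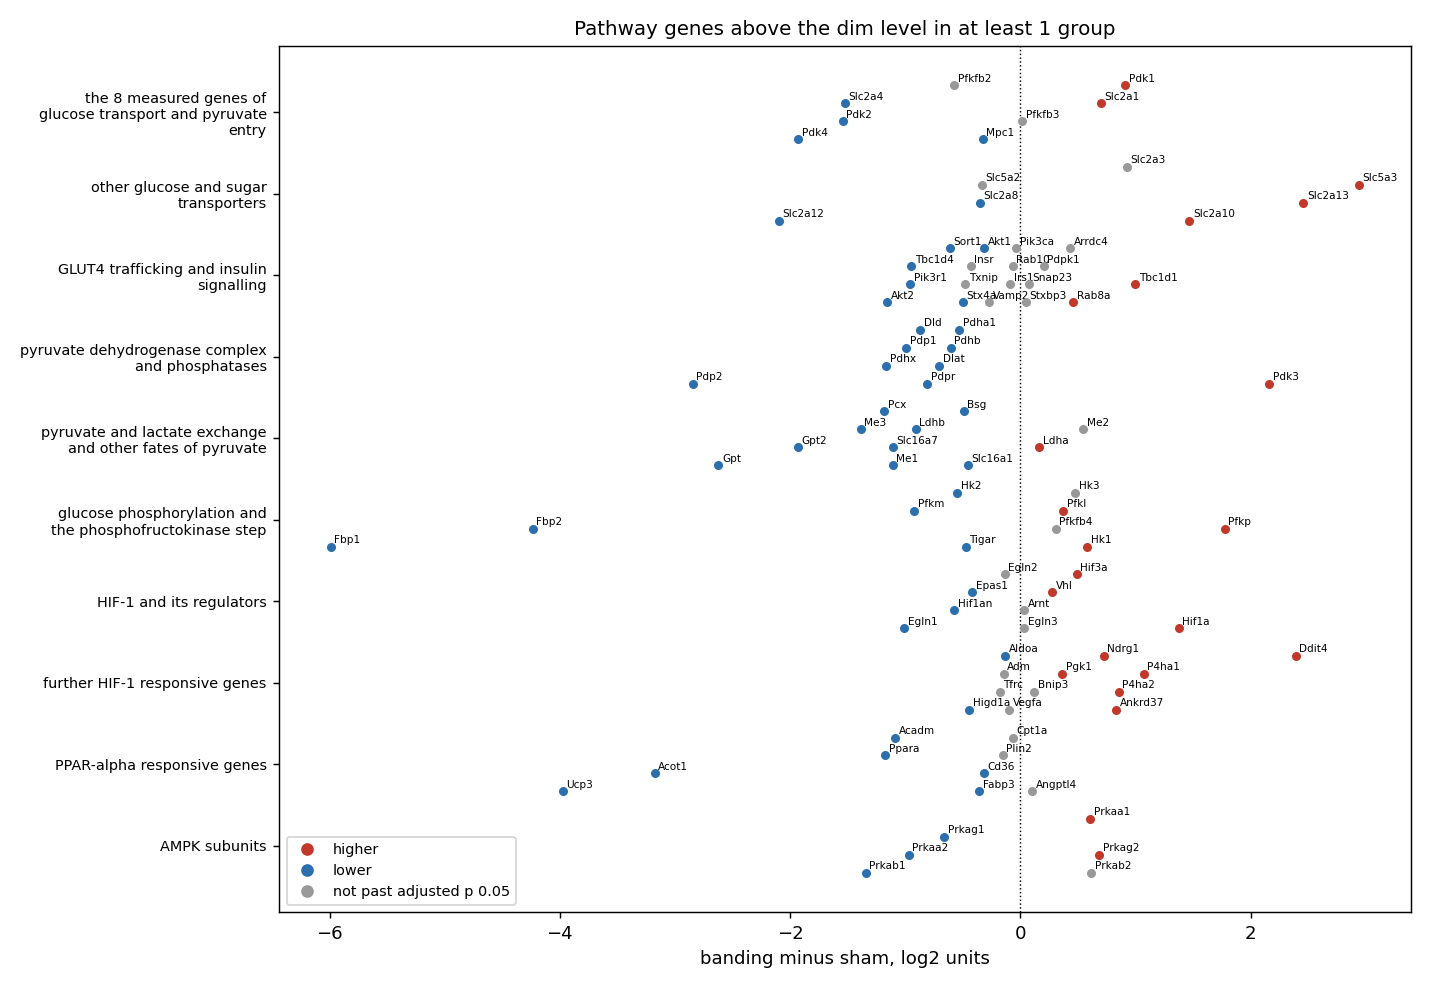
Difference, banding minus sham, in log2 units (x axis) for the 8 genes and for the genes of 9 pathway lists (y axis, points staggered for legibility), coloured by call. The pyruvate dehydrogenase list has 8 genes on the left and Pdk3 alone on the right, and genes dim in both groups are not drawn.

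The regulators known for these genes were examined as 3 lists. Their counts stand beside the 38.4% of all genes that passed, or 7212 of 10748 above the dim level. Hif1a, the oxygen-sensitive subunit of HIF-1, rose 2.59-fold (1.38 ± 0.11, adjusted p = 9.22e-05). Of its hydroxylases, Egln1 (-1.01 ± 0.11) and Hif1an (-0.57 ± 0.08) fell, while Egln2 (-0.14 ± 0.05) and Egln3 (0.03 ± 0.18) did not pass. Of the 9 genes on that list 3 rose, 3 fell and 3 missed the threshold, and without sham replicate 2, 3 or 4 or without banding replicate 4 only 1 was higher and 2 were lower. Of 13 further HIF-1 responsive genes 6 rose, 2 fell and 5 missed the threshold (median 0.36). P4ha1 (1.07 ± 0.14) and P4ha2 (0.85 ± 0.14), which hydroxylate collagen, and Ndrg1 (0.72 ± 0.11) rose, whereas Higd1a (-0.45 ± 0.06) fell. Those that missed it were Vegfa (-0.10), Adm (-0.14), Bnip3 (0.12), Tfrc (-0.18) and Car9, dim in both groups. P4ha1 and P4ha2 are also genes of collagen making. Fibroblast markers were higher on the same arrays, and their part in these values was not tested. Of 9 genes responsive to PPAR-alpha, a regulator of Pdk4, 0 rose, 6 fell and 3 missed the threshold (median -0.36). Acadm fell 2.13-fold, and Ucp3, an uncoupling protein of muscle mitochondria, fell at least 14.6-fold (adjusted p = 0.00162). Ppara, which encodes PPAR-alpha, fell too (-1.17 ± 0.30, adjusted p = 0.0166). Angptl4 (0.10), Cpt1a (-0.06) and Plin2 (-0.15) did not pass.

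The calls of Slc2a4, Pdk1, Pdk2, Pdk4 and Mpc1 held when any 1 array was left out. That of Pdk1 rests on its brightest probe set alone. With the mean of the liver markers as a covariate limma called 0 of the 8 genes (4 at an unadjusted p under 0.05), with adjusted p from 0.0517 to 0.635 for the 6. That mean itself separates the groups, and the differences were then -2.05 for Slc2a4, -2.36 for Pdk2, -2.14 for Pdk4, 1.23 for Pdk1, 0.82 for Slc2a1 and -0.20 for Mpc1.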

How the data were processed

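Right ventricular RNA was profiled on 5 arrays of the banding group and 4 of the sham group. Per the labels, the authors deposited log2 expression values, while RMA and GCRMA appear in the submitters' processing notes, which give neither a version nor which one made these values. The scale was read from the values, which run from 2.198 to 16.43. The 45101 probe sets included 64 controls, 9160 without a gene symbol and 932 with several, all left out.

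One probe set stood for a gene, the one brightest on average across the 9 arrays, and dim genes were kept. Groups were compared in limma 3.58.1 under R 4.3.3 (lmFit, eBayes, two-sided, Benjamini-Hochberg, threshold 0.05), over 18193 genes and separately over 34945 probe sets. Where a group mean lay under 4.198, folds are given as "at least". The fit was tested on simulated data. Array measures were compared by exact permutation. Promoter windows came from RefSeq tables, and figures used matplotlib 3.10.9.

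The members and lists were chosen with earlier results of these data known. All members, up to 4 genes per list with the smallest p, direct partners, and some isoforms or relatives of these were named. Ppara and the HIF-1 or PPAR-alpha responsive genes that missed the threshold were named as well. Replicate numbers are shared between groups but pair no samples by label. Alternatives tried were averaging the probe sets of a gene, dropping those with names ending in _x_at or _s_at, a dim filter, quantile normalisation, median centring, flooring, trended robust fitting, a liver covariate, a replicate block and leaving out arrays.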

Additional observations from a re-analysis of the deposited data

Results flagged for a closer look

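In 30 groups of values from member probe sets above the dim level, 2 held an array far from the rest of its group, and chance gives about 1 in 20. For Pdk2 (1448825_at), sham replicate 4 read 11.595 while the other sham arrays read 12.01 to 12.04, a gap of 0.94 of the group's range. That array also carried the most liver and skeletal muscle transcripts, and the part they play was not tested. For Pfkfb3 (1416432_at), banding replicate 2 read 6.78 while the other banding arrays read 6.48 to 6.49, a gap of 0.978 of the range. Banding replicates 3, 4 and 5 shared 1 value there. The rate of 1 in 20 holds for values without ties and does not apply to that group.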

How the results depend on the processing

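Over 19 alternatives, 131 of 152 gene values kept their direction and their side of the threshold, 16 lost the call and 5 changed sign. The changes of sign were all of Pfkfb3, never past the threshold, which gave -0.027 with the mean of its probe sets, -0.075 after quantile normalisation, -0.013 after median centring, and -0.042 to 0.103 when 1 array, or sham replicate 4 with banding replicate 5, was left out. With the liver marker covariate, which itself separates the groups, limma called 1880 genes, 2296 probe sets and 0 of the 8 genes (4 at an unadjusted p under 0.05). Leaving out 1 array gave 6270 to 6701 genes, 9430 to 10356 probe sets and 5 to 6 of the 8 genes, and Actb 3' minus 5' differences of -0.23 to -0.17 whose adjusted p (0.0536 to 0.0857) could not pass with so few splits. No pairing was borne out by the replicate numbers, since same-numbered arrays deviated together with r from -0.034 to 0.036 and no sham array went best with its own number. With the replicate block 5277 genes, 7406 probe sets and 4 of the 8 genes passed, without Slc2a1 (0.60, adjusted p = 0.111) and Mpc1 (-0.34, adjusted p = 0.0833). Lists were recomputed under alternatives chosen after the data were seen. Signal near the floor limits Pfkfb2, Pfkfb3 and Pdk1 to their brighter probe sets.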

Other observations

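Subunits of AMPK, the energy-sensing kinase that promotes glucose uptake, changed in both directions. Of 7 measured, 2 rose, 3 fell and 2 missed the threshold. For comparison, 38.4% of all genes passed, and 7212 of 10748 above the dim level. The catalytic subunit Prkaa2, the main one of heart muscle, fell 1.96-fold (-0.97 ± 0.07, adjusted p = 8.37e-05), while Prkag2 rose 1.61-fold (0.68 ± 0.12, adjusted p = 0.00259). Prkab1 fell 2.54-fold and Prkag1 1.58-fold, and the counts were the same without sham replicate 4.

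Among 10747 other genes above the dim level, those whose values over the 9 arrays were most like Slc2a4 were Ecpas (r = 0.998, or 0.98 after group means were subtracted), Rxrg (0.997 and 0.98) and Hars2 (0.997 and 0.98). For Pdk2 they were Smim11 (r = 0.998), Ttll1 (0.998) and Dnaja3 (0.998), each at 0.98 or more within groups. For Slc2a1 they were Myo1c (0.981), Acot9 (0.98) and Anxa7 (0.979), with 0.95 to 0.97 within groups. For Pdk4 they were Gps2 (0.982), Mrps18b (0.979) and Uhrf1bp1 (0.977), with 0.83 to 0.89 within groups. For Pdk1 they were Actr3 (0.995), Pafah1b2 (0.993) and Psip1 (0.993), for Mpc1 Kdm8 (0.985), Bcam (0.981) and Smc6 (0.977), for Pfkfb2 Ephb1 (0.971), Ppp2r5c (0.967) and Phf14 (0.964), and for Pfkfb3 Arhgap42 (0.949), Fam210b (0.936) and Rcbtb1 (0.915), each at 0.91 or more within groups. These are descriptions over 9 arrays that share the group difference.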
